A study of Mus musculus with 6 samples.

Results

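The S100 genes encode small EF-hand proteins that change shape on binding calcium and then grip a partner protein, or act as signals once they leave the cell. S100A8 and S100A9 pair as calprotectin, a calcium- and metal-binding heterodimer that fills the cytosol of neutrophils and monocytes and is released as an alarm signal for Toll-like receptor 4 and for the receptor for advanced glycation end products. The other family members work mostly inside the cell, at membranes, annexins, myosin or calcium pumps. The 8 S100 genes described here were S100a1, S100a4, S100a6, S100a8, S100a9, S100a10, S100a11 and S100a13. They were found by matching the Ensembl identifiers of the count table to mouse gene symbols, and they were 8 of the 49585 identifiers in the table. All 8 lie on mouse chromosome 3.

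The cells were mouse acute myeloid leukemia cells driven by the KMT2A-MLLT3 fusion, taken from the bone marrow of mice with advanced disease, transduced with DOT1L and grown in medium with mouse IL3, IL6 and SCF. DOT1L is the methyltransferase that modifies histone H3 at lysine 79. Cells with high or low DOT1L expression were sorted, and mRNA was taken 3 days later for paired-end sequencing. The 6 libraries were DOT1L High, DOT1L Low and NT, once each from the leukemia numbered K3174 and from the leukemia numbered K3117. The labels do not spell out NT, nor whether NT cells carried a vector or passed through the sorter. They do not say whether K3174 and K3117 came from separate mice, so p-values speak for these 2 leukemias and no more. The tests of the labels set each label difference against a spread estimated from its disagreement between the leukemias and from other genes. The other genes weigh more in it, with a median of 9.38 degrees of freedom against 2 from the gene itself. The difference in level between the leukemias is not part of that spread. All 6 libraries share the fusion and the culture medium. The question the design poses for the S100 family is which of its genes differ with the amount of added DOT1L.

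Library totals ran between 22908445 and 33265848 counts. CPM values are counts per 1000000 counts in the genes tested, with that sum scaled by edgeR's TMM factor. The mouse Dot1l gene had 158, 152 and 136 CPM in the NT, DOT1L Low and DOT1L High libraries of K3174, and 128, 184 and 149.8 CPM in those of K3117, and no comparison of it passed the test. The species of the DOT1L construct is not stated, so these counts do not check the sort, and every direction below is drawn from the labels. Fold changes come from edgeR's quasi-likelihood test over all 6 libraries with the leukemia as a block, and a gene is said to rise or fall where its p, adjusted over the 15812 genes tested, was under 0.05.

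S100a8 and S100a9 carried the widest differences of the family, and the stretches of DNA just upstream of their starts are shown here because the 2 transcripts moved together in every library. The 250 bases before each RefSeq start were read from RefSeq (build GRCm38.p6) and searched on both strands for 4 motifs. The C/EBP site was written TTNNGCAA, the site shared by HOXA9 and MEIS1 was written TGATTNAT, the core of the PU.1 site was written GAGGAAG, and the TATA box was searched by the letters TATAAA. Capitals mark the matches. The S100a8 window is chr3:90668821-90669070 on the plus strand, and the S100a9 window is chr3:90695722-90695971 on the minus strand, each written 5′ to 3′ along its gene.
S100a8: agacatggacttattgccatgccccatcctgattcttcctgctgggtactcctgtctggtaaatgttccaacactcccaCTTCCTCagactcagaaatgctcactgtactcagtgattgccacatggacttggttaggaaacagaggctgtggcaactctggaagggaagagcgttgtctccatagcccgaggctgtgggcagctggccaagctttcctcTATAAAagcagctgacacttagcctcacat
S100a9: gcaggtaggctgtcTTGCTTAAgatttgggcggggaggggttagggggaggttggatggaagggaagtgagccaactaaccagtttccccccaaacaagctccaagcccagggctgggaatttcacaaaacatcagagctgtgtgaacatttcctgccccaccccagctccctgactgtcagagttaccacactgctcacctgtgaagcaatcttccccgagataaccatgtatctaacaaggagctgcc

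The S100a8 window held CTTCCTC, the PU.1 core on the opposite strand, 171 to 165 bases before the start, and TATAAA 30 to 25 bases before it. The S100a9 window held TTGCTTAA, the C/EBP site on the opposite strand, 236 to 229 bases before the start, and none of the other 3 motifs. These letters are common: of 32851 mouse promoter windows of the same length, 9.56% held TTNNGCAA, 10.6% held GAGGAAG, 12.4% held TATAAA and 2.82% held TGATTNAT. Windows were matched for 7 of the 8 members. S100a4 held TATAAA 31 to 26 bases before its start, and S100a1, S100a13, S100a6 and S100a11 held none of the 4 motifs. CpG dinucleotides separated the windows in another way: S100a8 and S100a9 had 2 each, S100a4 had 2 and S100a6 had 3, against 11 in S100a11, 13 in S100a13 and 8 in S100a1, and the median of all windows was 6. The RefSeq start of S100a8 lies 93 bases inside the gene as GENCODE release M21 annotates it, while the S100a9 starts coincide.

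S100a8 encodes the smaller calprotectin subunit. In K3174 it measured 42.4 CPM in NT, 350.5 CPM in DOT1L Low and 1819 CPM in DOT1L High. In K3117 it measured 2.95, 27.6 and 428 CPM in the same order. The libraries labelled DOT1L High lay above all 4 others, but DOT1L Low and NT overlapped, since the NT library of K3174 lay above the DOT1L Low library of K3117. The DOT1L Low library of K3174 stood close to the DOT1L High library of K3117. In the test S100a8 rose 76.9-fold in DOT1L High over NT (95% interval 43.1 to 137; log2 fold change 6.26 ± 0.38 SE, adjusted p = 1.4e-06). Within the leukemias the fold was 42.9 in K3174 and 142 in K3117. Both lie outside that interval, so the interval does not span the disagreement between the leukemias.

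S100a9 encodes the larger subunit, whose tail helps calprotectin to bind manganese. In K3174 it measured 33.4 CPM in NT, 412.8 CPM in DOT1L Low and 2441 CPM in DOT1L High. In K3117 it measured 2.29, 28.0 and 496 CPM. It followed S100a8 from library to library, with the same order of all 6. It rose 122.9-fold in DOT1L High over NT (95% interval 69.5 to 217; log2 fold change 6.94 ± 0.38 SE, adjusted p = 6.6e-07). Without the K3117 DOT1L High library the log2 values were 5.45 for S100a8 and 6.18 for S100a9, without the K3174 DOT1L High library they were 7.12 and 7.77, and without K3174 NT S100a8 had 6.85. Both calls held under every scaling, and both values stayed positive when any library was left out. A fit without 1 library leaves 1 library under that label, so it cannot judge a call. Both calls were lost without the leukemia as a block, where the adjusted p was 0.15 for S100a8 and 0.13 for S100a9.

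**Figure D1:**
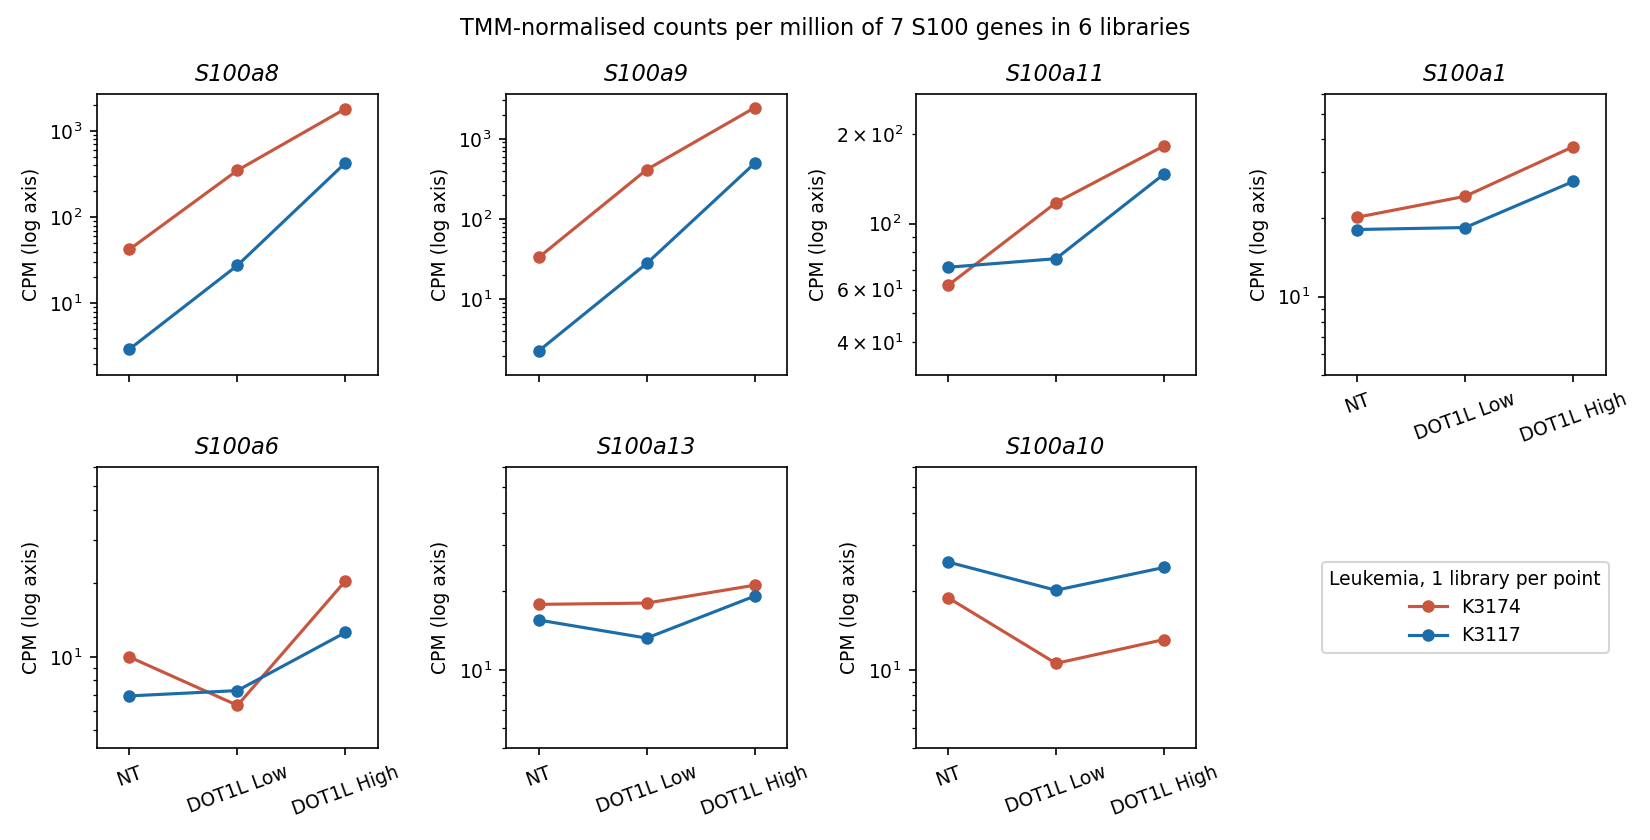
TMM-normalised CPM (log axis) of 7 S100 genes against the DOT1L label; each point is 1 library and the lines join the libraries of K3174 and of K3117. S100a8 and S100a9 climb at both steps in both leukemias, up to 1819 and 2441 CPM, while S100a10 and S100a13 stay between 10.6 and 25.9 CPM.

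The calprotectin pair also rose in the libraries labelled DOT1L Low. Over NT, S100a8 rose 3.05 ± 0.34 (adjusted p = 0.00062) and S100a9 rose 3.56 ± 0.33 (adjusted p = 0.00021) on the log2 scale. From DOT1L Low on to DOT1L High the further rise was 3.21 ± 0.33 for S100a8 (adjusted p = 0.00023) and 3.39 ± 0.31 for S100a9 (adjusted p = 0.00014). Those last values were 2.33 and 2.55 without K3117 DOT1L High and 3.99 and 4.14 without K3174 DOT1L High, and S100a8 in DOT1L Low over NT was 3.73 without K3174 NT. These comparisons share libraries, so their sizes are given side by side only. Of the 7 members with enough counts to test, 5 rose (S100a8, S100a9, S100a11, S100a6 and S100a1) and 0 fell in DOT1L High over NT. Of all genes tested 17.3% were called there, 10.0% higher and 7.32% lower. Against NT, DOT1L Low gave 2 members that rose and 0 that fell, beside 3.34% of all genes called, 2.05% higher and 1.29% lower. Against DOT1L Low, DOT1L High gave 5 that rose (S100a8, S100a9, S100a11, S100a6 and S100a1) and 0 that fell, beside 5.48% of all genes called, 4.12% higher and 1.35% lower. Without the K3174 DOT1L High library 3 members were called in the first comparison. In the second, 4 were called without the K3117 NT, K3117 DOT1L High or K3174 DOT1L High library, and in the third 3 without either DOT1L Low library.

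S100a11, which binds annexin A1 and works in membrane repair, rose to a lesser extent. It measured 61.9, 117.5 and 182 CPM in the NT, DOT1L Low and DOT1L High libraries of K3174, and 71.3, 76.2 and 147 CPM in those of K3117. Both DOT1L High libraries lay above all 4 others, while 1 DOT1L Low library lay near the NT level. It rose 1.28 ± 0.17 on the log2 scale in DOT1L High over NT (adjusted p = 0.00029). Against DOT1L Low it rose 0.78 ± 0.17 (adjusted p = 0.019), a call lost without the K3117 DOT1L Low library (adjusted p = 0.39). The difference in DOT1L Low over NT was 0.50 ± 0.17 (adjusted p = 0.17). That value passed the test when the K3117 NT library was left out (0.85, adjusted p = 1.6e-05), when the K3117 DOT1L Low, K3117 DOT1L High or K3174 DOT1L High library was (adjusted p = 0.0367, 0.0325 and 0.0310), and without a filter on low counts (adjusted p = 0.0043).

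S100a6, or calcyclin, a partner of the ubiquitin ligase adaptor CacyBP, measured 9.98, 6.33 and 20.5 CPM in K3174 and 6.92, 7.27 and 12.6 CPM in K3117, in the order NT, DOT1L Low, DOT1L High. The DOT1L High libraries were the highest of each leukemia, and the DOT1L Low libraries lay close to NT in K3117 and under it in K3174. It rose 0.96 ± 0.22 on the log2 scale in DOT1L High over NT (adjusted p = 0.011) and 1.24 ± 0.23 over DOT1L Low (adjusted p = 0.0077). The first call was lost without the K3174 DOT1L High library (0.67, adjusted p = 0.14) and the second without the K3174 DOT1L Low library (0.84, adjusted p = 0.16). Its value in DOT1L Low over NT was -0.28 ± 0.23 (adjusted p = 0.79).

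S100a1, best known from heart muscle, where it tunes calcium cycling by the sarcoplasmic reticulum, measured 20.1, 24.2 and 37.5 CPM in K3174 and 18.1, 18.4 and 27.6 CPM in K3117. Both DOT1L High libraries exceeded all 4 others. It rose 0.75 ± 0.15 on the log2 scale in DOT1L High over NT (adjusted p = 0.0042), a call lost without the K3174 DOT1L High library (adjusted p = 0.055). Over DOT1L Low it rose 0.61 ± 0.15 (adjusted p = 0.034). That second call was lost with library sizes alone and with upper quartile factors (adjusted p = 0.058 in each). It was lost as well when any of the 4 DOT1L libraries was left out, with adjusted p = 0.45 and 0.079 for K3117 DOT1L Low and High, and 0.20 and 0.40 for K3174 DOT1L Low and High. Its difference in DOT1L Low over NT was 0.14 ± 0.15 (adjusted p = 0.86).

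S100a13 assists the release of FGF1 and interleukin-1 alpha from cells by a route that bypasses the secretory pathway. It measured 17.8, 18.0 and 21.1 CPM in K3174 and 15.5, 13.2 and 19.2 CPM in K3117. Both DOT1L High libraries exceeded all 4 others, while DOT1L Low and NT overlapped. Its difference in DOT1L High over NT did not pass the test, at 0.27 ± 0.16 (adjusted p = 0.30), with a 95% interval of 0.949-fold to 1.54-fold. S100a1 and S100a13 face away from each other with 42 bases between their GENCODE starts, so the family's called and uncalled genes include immediate neighbours. The RefSeq start of S100a1 lies 62 bases inside its GENCODE gene, so the gap between RefSeq starts is wider. The GENCODE gap, chr3:90514393-90514434 in GRCm38.p6 on the plus strand, reads toward S100a13 and is shown for how little separates these 2 genes.
S100a1-S100a13 gap: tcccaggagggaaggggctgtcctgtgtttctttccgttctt

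S100a10, the p11 subunit that holds annexin A2 in a tetramer and does not need calcium to do so, did not share the rise. It measured 18.9, 10.6 and 13.1 CPM in K3174 and 25.9, 20.2 and 24.7 CPM in K3117. NT was the highest library of each leukemia, though the NT library of K3174 lay under all 3 libraries of K3117. The differences did not pass the test, with -0.30 ± 0.17 in DOT1L High over NT (adjusted p = 0.28; 95% interval 0.628-fold to 1.05-fold) and -0.59 ± 0.17 in DOT1L Low over NT (adjusted p = 0.095). Without the K3117 NT library the values became -0.54 (adjusted p = 0.024) and -0.83 (adjusted p = 0.0016). The DOT1L Low difference also passed without the K3117 or the K3174 DOT1L High library (adjusted p = 0.047 and 0.041) and without a filter on low counts (adjusted p = 0.028).

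S100a4, or metastasin, which binds non-muscle myosin and marks fibroblasts and many macrophages, was close to silent. It had 1, 1 and 3 counts in the NT, DOT1L Low and DOT1L High libraries of K3174 and 9, 2 and 0 in those of K3117, too few to test. GENCODE places 302 bases, or 51.7% of its exons, within the exons of Gm42674 on the same strand, and Gm42674 had 0 counts in all 6 libraries. How reads that fit both genes were counted is not given in the sources used here, so the S100a4 level is uncertain.

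The contrast between the pair and the rest of the family held within each leukemia. For DOT1L High over NT the log2 differences of the pair were 5.42 and 6.19 in K3174, against -0.53 to 1.56 for the other 5 members. In K3117 they were 7.15 and 7.72, against -0.07 to 1.04. The smaller difference of the pair thus exceeded the largest of the others by 3.87 in K3174 and 6.11 in K3117. The same gap in DOT1L Low over NT was 2.12 in K3174 and 3.10 in K3117. For DOT1L High over DOT1L Low it was 0.69 in K3174, where S100a6 differed by 1.68 and S100a8 by 2.38, and 3.01 in K3117. With 1 library per label and leukemia, these gaps are descriptions with no test.

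**Figure D2:**
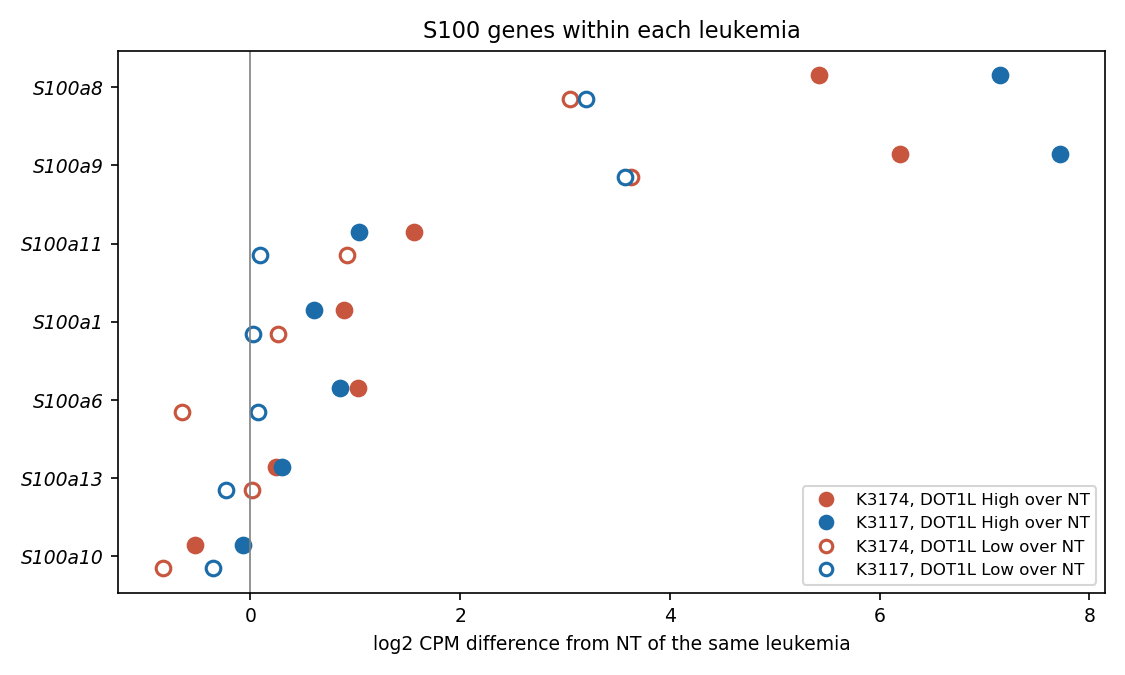
log2 CPM difference from the NT library of the same leukemia for 7 S100 genes; filled points are DOT1L High over NT, open points DOT1L Low over NT, red K3174 and blue K3117. The pair lies at 5.42 to 7.72 (filled) and 3.05 to 3.63 (open), and the other members lie between -0.83 and 1.56.

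The share of S100a9 among the counts of the pair followed the label within each leukemia. S100a9 made up 44.0% of the S100a8 and S100a9 counts in the NT library of K3174 (95% exact binomial interval 41.7 to 46.4), 54.1% in DOT1L Low (53.5 to 54.7) and 57.3% in DOT1L High (57.0 to 57.6). In K3117 it made up 43.7% (36.2 to 51.4), 50.3% (48.0 to 52.7) and 53.7% (53.0 to 54.4). The order of the labels was the same in both leukemias. Across leukemias, the NT libraries had 75.7 CPM of the pair in K3174 and 5.23 CPM in K3117 at nearly the same share. Under the other labels K3174 had both the higher level and the higher share. Its level was 763 against 55.7 CPM in DOT1L Low and 4260 against 924 CPM in DOT1L High. The mean was 55.5% ± 2.56 in DOT1L High and 43.9% ± 0.260 in NT (SD, n = 2 each), and an exact permutation test gave p = 0.333, two-sided, the smallest that 2 against 2 libraries allow. The intervals cover counting error only. Together the pair took 0.418% of all counts in the K3174 DOT1L High library against 0.00755% in K3174 NT, and 0.0899% in K3117 DOT1L High against 0.000541% in K3117 NT.

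**Figure D3:**
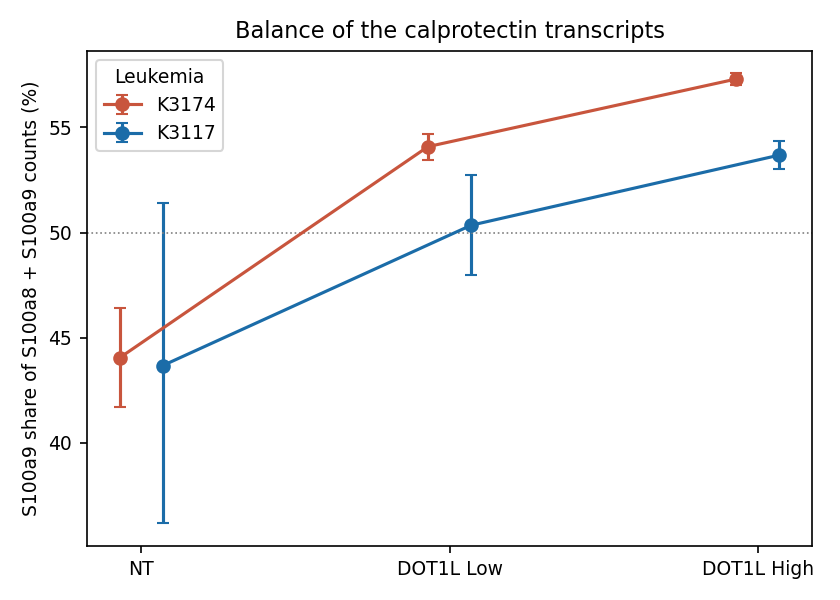
S100a9 counts as a percentage of S100a8 plus S100a9 counts, by DOT1L label, with 95% exact binomial intervals; each point is 1 library of K3174 or K3117. The share is 44.0% and 43.7% in NT, 54.1% and 50.3% in DOT1L Low, and 57.3% and 53.7% in DOT1L High.

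Levels between genes can be set side by side only per length. Per kilobase of exon, S100a9 reached 4676 CPM in the K3174 DOT1L High library and stood at rank 2 of all genes with a length, and S100a8 reached 2622 CPM per kilobase and rank 5. In K3117 DOT1L High they reached 950.4 and 617 CPM per kilobase, ranks 26 and 43. In NT the ranks of S100a9 were 845 in K3174 and 7849 in K3117. S100a11 stood at rank 103 in K3174 DOT1L High and 136 in K3117 DOT1L High, against 391 and 289 in the NT libraries. On this scale S100a11 was the family's most abundant member in the NT libraries, at 121 CPM per kilobase in K3174 and 139.6 in K3117, with S100a9 and S100a8 next in K3174 (63.9 and 61.1, 1 library each) and last of the 7 in K3117 (4.38 and 4.25). With the length of the longest transcript in place of all exons, S100a8 came before S100a9 in NT, with 85.1 and 64.3 CPM per kilobase in K3174 and 5.92 and 4.40 in K3117.

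The level of the pair also differed between the leukemias. Over the 3 labels, S100a8 was higher by 3.11 ± 0.27 and S100a9 by 3.26 ± 0.27 on the log2 scale in K3174 over K3117 (adjusted p = 2.3e-05 and 1.3e-05), while S100a10 was lower, at -0.76 ± 0.14 (adjusted p = 0.0042). Without the DOT1L High library of either leukemia the S100a8 value was 3.74 and the S100a9 value 3.88. In this comparison, added after the values were seen, 9.37% of all genes tested were called, 3.05% higher and 6.32% lower. The ratio of K3174 to K3117 was 14.4 for S100a8 in NT, 12.7 in DOT1L Low and 4.25 in DOT1L High. For S100a9 it was 14.6, 14.7 and 4.92. The ratios of the other members ran between 0.524 and 1.63 over the 3 labels. S100a1 and S100a11 passed the test when either NT library was left out, S100a1 at 0.42 and 0.43 (adjusted p = 0.011 and 0.016) and S100a11 at 0.47 and 0.48 (adjusted p = 0.000502 and 0.000938).

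The 5 cluster members S100a1, S100a13, S100a4, S100a6 and S100a8 precede S100a9 along 184688 bases of chromosome 3, and S100a11 and S100a10 lie 2824766 bases further on. S100a1 occupies chr3:90511034-90514392, S100a6 chr3:90612882-90624181, S100a8 chr3:90668978-90670035 and S100a9 chr3:90692632-90695721 (GRCm38). The 2 calprotectin genes stand 22596 bases apart on opposite strands. Within 250 kb of S100a8 and S100a9, or between S100a1 and S100a9, 29 genes were annotated and 10 had enough counts to test. The 5 that were not S100 genes were called in none of the 3 DOT1L comparisons, with log2 differences of -0.13 to 0.22 in DOT1L High over NT. Ints3, Ilf2, Snapin and Chtop lie beyond S100a1, at the end of the cluster away from the pair. On the S100a9 side stood only the pseudogene Gm35013, at 1.25 to 2.01 CPM (SE 0.36 in DOT1L High over NT). No tested gene outside the family lay between S100a1 and S100a9. Those 5 stayed uncalled under every alternative setting.

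**Figure D4:**
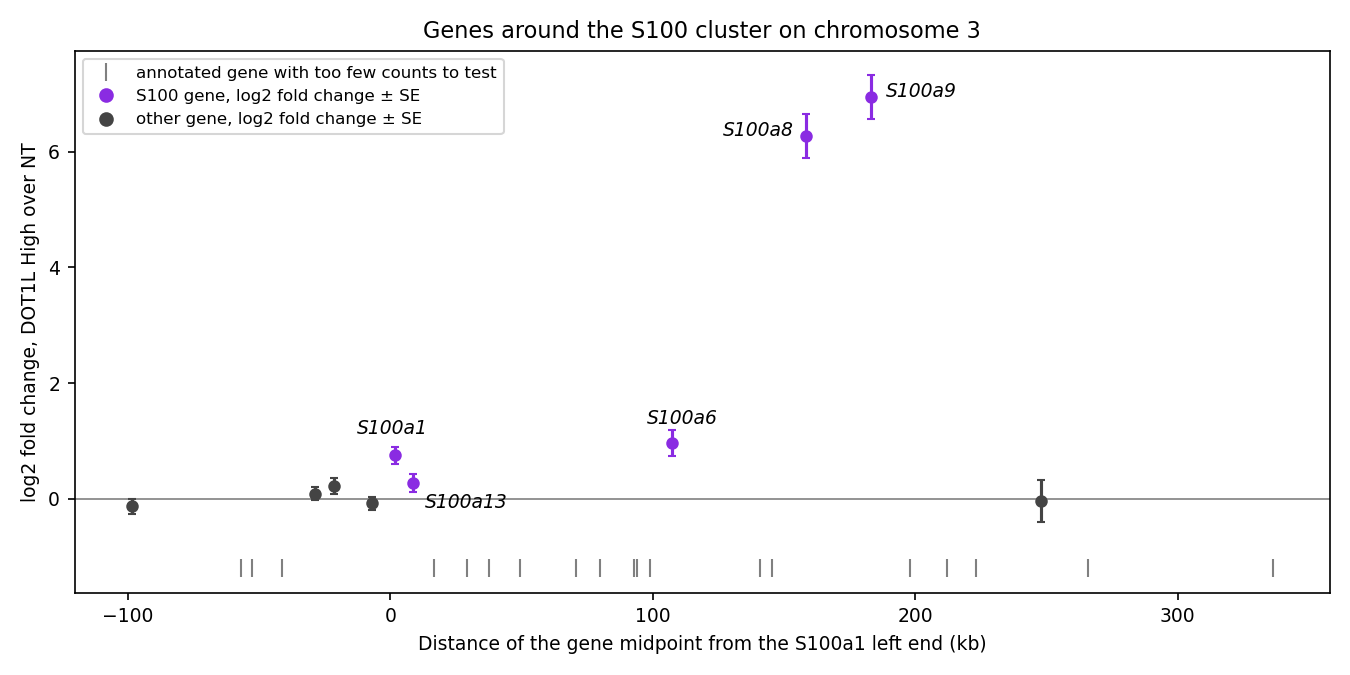
log2 fold change ± SE in DOT1L High over NT of the 10 tested genes around the S100 cluster, by distance of the gene midpoint from the left end of S100a1 in kb; grey ticks mark annotated genes with too few counts. S100a8 and S100a9 stand at 6.26 and 6.94 and the 5 genes outside the family between -0.13 and 0.22.

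The remaining S100 genes were hardly detected. S100a5 had 13 counts over all 6 libraries, S100g 9, S100a14 6, S100a3 and S100b 3 each and S100a7a 1, and S100a2, S100a16 and S100z had 0. None had enough counts to test. Of the 7 fused-type S100 genes of skin and hair, such as filaggrin, 6 had 0 counts, and trichohyalin (Tchh), with 164 counts, differed by -0.23 ± 0.39 in DOT1L High over NT (adjusted p = 0.77).

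Cell-surface proteins reported to bind S100 proteins formed a list of 10 genes, all tested. Of these, 4 rose and 1 fell in DOT1L High over NT, with a median log2 difference of 0.44 against -0.01 over all genes tested. Of all genes tested, 10.0% were called higher and 7.32% lower in DOT1L High over NT. The shares were 2.05% and 1.29% in DOT1L Low over NT, and 4.12% and 1.35% in DOT1L High over DOT1L Low. They stand beside every list count below. Tlr4, the Toll-like receptor that answers to S100A8, had 10.3, 27.8 and 40.2 CPM in K3174 and 18.2, 27.1 and 52.6 CPM in K3117. It rose 1.72 ± 0.19 in DOT1L High over NT (adjusted p = 7.6e-05) and 0.99 ± 0.19 in DOT1L Low over NT (adjusted p = 0.015), a call at DOT1L Low that was lost without the K3174 DOT1L Low library (adjusted p = 0.28). Its co-receptor Cd14 rose 1.38 ± 0.20 in DOT1L High over NT (adjusted p = 0.00047), with 30.5 against 16.3 CPM in K3174 and 97.8 against 27.4 CPM in K3117. Ly96, or MD-2, which completes that receptor, fell by 1.27 ± 0.35 (adjusted p = 0.027) at a level of 0.673 against 1.71 CPM in K3174 and 1.25 against 2.89 CPM in K3117.

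The Ly96 call was lost with DESeq2 (adjusted p = 0.10) and without the K3117 NT (0.084) or the K3174 DOT1L High library (0.14). Alcam, an adhesion molecule, had 22.4 against 1.23 CPM in K3174 and 5.78 against 3.31 CPM in K3117, DOT1L High against NT. It rose 2.25 ± 0.56 (adjusted p = 0.016), a call lost with DESeq2 (adjusted p = 0.17). Its value was 4.07 without K3117 NT, 3.14 without K3117 DOT1L High, 1.34 without K3174 DOT1L High and 0.97 without K3174 NT. The last of the 4, named after its value was seen, was the sialic acid receptor Cd33, with 0.85 ± 0.26 (adjusted p = 0.045). Its call ended with DESeq2 (adjusted p = 0.27), without the K3174 NT library (0.23, adjusted p = 0.22; 1.58 without K3117 NT), with library sizes alone (adjusted p = 0.073), with upper quartile factors (0.066) and with a stricter expression filter (0.078). Ager, the receptor for advanced glycation end products, had a difference of 0.74 ± 0.37 (adjusted p = 0.22). For DOT1L Low over NT, 1 of the 10 rose and 0 fell (median 0.07), and in DOT1L High over DOT1L Low 2 rose and 0 fell (median 0.63). The first of these counts was 3 higher without K3117 NT, 2 without K3174 NT and 0 without K3174 DOT1L Low, and 1 gene was lower without K3174 DOT1L High. The second was 4 without either NT library and 1 without K3117 DOT1L Low or K3174 DOT1L High.

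Intracellular partners formed a list of 16 genes, of which 14 were tested and 1 (Syt1) had 0 counts. Of the 14, 5 rose and 1 fell in DOT1L High over NT, with a median of 0.11. Of all genes tested, 10.0% were higher and 7.32% lower there. Annexin A1 (Anxa1), the S100A11 partner, had 33.6, 34.0 and 136.6 CPM in K3174 and 19.8, 16.5 and 56.3 CPM in K3117, with the NT and DOT1L Low libraries of each leukemia close together. It rose 1.77 ± 0.15 in DOT1L High over NT (adjusted p = 1.3e-05) and 1.90 ± 0.15 over DOT1L Low (adjusted p = 8.0e-05). Interleukin-1 alpha (Il1a), the S100A13 cargo, rose 1.80 ± 0.24 (adjusted p = 0.00028), Anxa11 rose 0.88 ± 0.14 (adjusted p = 0.00081) and Ahnak, the giant scaffold held by S100A10 and annexin A2, rose 0.92 ± 0.19 (adjusted p = 0.0055). The Ahnak call was lost without the K3174 DOT1L High library (adjusted p = 0.091).

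The other 2 calls, named after their values were seen, were Myh9, the non-muscle myosin bound by S100A4, with 0.50 ± 0.12 (adjusted p = 0.014), and Dlc1 with -1.76 ± 0.52 (adjusted p = 0.038). Both were lost without the K3174 DOT1L High library (adjusted p = 0.14 and 0.18), and Dlc1 also without the K3174 NT library (0.11) and with DESeq2 (0.073). The Dlc1 value was -2.68 without K3117 NT and -3.44 without K3117 DOT1L High. Annexin A2 (Anxa2), the partner of S100A10 and likewise named after its value was seen, fell by 0.63 ± 0.12 in DOT1L Low over NT (adjusted p = 0.014), the only call of the list there, and rose 0.75 ± 0.12 in DOT1L High over DOT1L Low (adjusted p = 0.0031). It had 130.1, 84.7 and 153.7 CPM in K3174 and 159, 102 and 159.3 CPM in K3117, and like S100a10 it was lowest at DOT1L Low in both leukemias. The first Anxa2 call was lost without the DOT1L Low library of K3117 (adjusted p = 0.084) or K3174 (0.25). Over DOT1L Low, DOT1L High had 5 of the 14 higher and 0 lower (median 0.26), and in DOT1L Low over NT the median was -0.06. The counts for DOT1L High over NT became 3 higher and 0 lower without the K3174 DOT1L High library, 0 lower without K3174 NT and 2 lower without K3117 NT. The count of 1 lower in DOT1L Low over NT became 0 without either DOT1L Low library and 2 without any of the other 4 libraries.

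Transcription factors known to act on the S100a8 and S100a9 promoters in myeloid cells formed a list of 8 genes, all tested. Of these, 4 rose and 0 fell in DOT1L High over NT, with a median of 0.64, beside 10.0% higher and 7.32% lower of all genes. Cebpe, the C/EBP factor of late granulocyte maturation, had 34.6, 115.9 and 235 CPM in K3174 and 10.2, 57.5 and 152 CPM in K3117, the same order of labels as the pair. It rose 3.30 ± 0.22 in DOT1L High over NT (adjusted p = 2.6e-06) and 2.07 ± 0.21 in DOT1L Low over NT (adjusted p = 0.00038). Cebpd rose 1.28 ± 0.13 (adjusted p = 4.4e-05), Spi1, which encodes PU.1, rose 0.77 ± 0.12 (adjusted p = 0.00082) and Cebpb rose 0.81 ± 0.18 (adjusted p = 0.0082). For DOT1L Low over NT, 2 of the 8 rose and 0 fell (median 0.34), and in DOT1L High over DOT1L Low 2 rose and 0 fell (median 0.31). The first of these counts was 1 without either DOT1L Low library and 5 without K3174 NT. The second was 4 without either NT library and 1 without any of the 4 DOT1L libraries.

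The pair is itself a marker of mature myeloid cells, and most late neutrophil markers rose with it in DOT1L High over NT. Of 16 late neutrophil genes 15 were tested, and 14 rose and 0 fell in DOT1L High over NT (median 4.40). Among all genes tested the shares were 10.0% higher and 7.32% lower. For DOT1L Low over NT 9 rose (median 1.78), and in DOT1L High over DOT1L Low 13 rose (median 2.08), with 0 lower in each. Without the K3117 NT library 1 gene was lower in DOT1L Low over NT. Their summed level was 1016 to 3763 CPM in DOT1L High, 226 to 866 CPM in DOT1L Low and 102 to 203 CPM in NT. Camp, the cathelicidin of neutrophil granules, rose 6.19 ± 0.31 (adjusted p = 5.5e-07), Lcn2 rose 5.21 ± 0.22 (adjusted p = 5.5e-07) and Fcnb rose 4.74 ± 0.25 (adjusted p = 6.6e-07). In K3117 NT, Camp had 13 counts and Fcnb 3 (0.391 and 0.0902 CPM), against 6.17 and 3.94 CPM in K3174 NT. Such low counts limit the folds of these genes. Without K3174 DOT1L High, Camp had 6.99 and Fcnb had 5.37, and both lay within 0.01 of those values without K3174 NT. Itgb2l had 92.2 against 1.31 CPM in K3174 and 11.2 against 0.0301 CPM in K3117, DOT1L High against NT. The list's part in the rise of S100a8 and S100a9 was not tested, and in bulk RNA more cells of a type and more RNA per cell cannot be told apart.

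Monocyte markers did not share 1 direction. Of 13 tested, 5 rose and 4 fell in DOT1L High over NT (median 0.65), beside 10.0% higher and 7.32% lower of all genes. In DOT1L Low over NT 1 rose and 2 fell (median -0.30), beside 2.05% and 1.29%. In DOT1L High over DOT1L Low 6 rose and 0 fell (median 0.69), beside 4.12% and 1.35%. Without K3174 DOT1L High, 2 fell in the first comparison. Without K3117 NT the second had 2 higher and 4 lower, and without either DOT1L Low library 0 higher. In the third, 3 rose without K3117 DOT1L Low, 2 fell without either NT library and 1 fell without K3117 DOT1L High. Csf1r, the macrophage colony-stimulating factor receptor, rose 1.40 ± 0.12 (adjusted p = 1.7e-05), and so did Adgre1 by 1.26 ± 0.13 (adjusted p = 4.0e-05), Lyz2 by 2.09 ± 0.24 (adjusted p = 0.00011) and Ly6c2 by 0.98 ± 0.12 (adjusted p = 0.00019). The Lyz2 value was 2.68 without K3117 NT. The 4 that fell, named after their values were seen, were the chemokine receptor genes Ccr2, by 1.21 ± 0.16 (adjusted p = 0.00028), and Cx3cr1, by 0.70 ± 0.15 (adjusted p = 0.0080), the transcription factor gene Irf8, by 1.09 ± 0.20 (adjusted p = 0.0027), and fibronectin (Fn1), by 1.01 ± 0.31 (adjusted p = 0.042). Without K3174 DOT1L High the calls of Cx3cr1 (adjusted p = 0.18) and Fn1 (-0.39, adjusted p = 0.63) were lost. Fn1 also lost its call without K3174 NT (-0.54, adjusted p = 0.27) and with a stricter expression filter (adjusted p = 0.054), and was -1.70 without K3117 DOT1L High. Without the leukemia as a block all 4 lost their calls (adjusted p = 0.069 to 0.72). Among the named genes that rose, Csf1r and Lyz2 lost theirs in that fit as well (adjusted p = 0.19 and 0.27). The summed level of the list was 2325 to 3306 CPM in DOT1L High, 1309 to 1624 CPM in DOT1L Low and 1152 to 1718 CPM in NT.

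Of the leukemia and progenitor genes, 3 of 6 rose and 2 fell in DOT1L High over NT (median 0.39). Over all genes tested, 10.0% were higher and 7.32% lower. Mpo rose 3.28 ± 0.52 (adjusted p = 0.0010) and Itgam rose 1.73 ± 0.28 (adjusted p = 0.0012), while the self-renewal factors Meis1 and Hoxa9 fell by 1.18 ± 0.12 (adjusted p = 4.7e-05) and 0.75 ± 0.11 (adjusted p = 0.00076). Mpo had 2118 against 526 CPM in K3174 and 913 against 30.5 CPM in K3117, DOT1L High against NT. Its value was 2.16 without K3117 NT, 2.46 without K3117 DOT1L High, 4.18 without K3174 DOT1L High and 4.77 without K3174 NT. The Itgam value was 2.51 without K3117 NT and 1.11 without K3174 NT.

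Markers of other cell types differed in level. Col1a2, Col3a1 and Lum among stromal genes had 0 counts. The stromal and endothelial list summed to 129 to 193 CPM in DOT1L High, 140.4 to 229.8 CPM in DOT1L Low and 169 to 213 CPM in NT, most of it Pecam1, an adhesion molecule of endothelium that leukocytes and platelets also carry, at 114 to 213 CPM per library. Of the 3 genes of that list tested, 0 were called. In the T and NK list nearly all counts were of Nkg7. The list summed to 42.7 to 54.8 CPM in DOT1L High, 24.3 to 44.6 CPM in DOT1L Low and 7.79 to 22.1 CPM in NT. Its genes Cd3e, Cd8a and Trbc2 had 0 counts, and Nkg7, the only one tested, rose 1.87 ± 0.22 in DOT1L High over NT (adjusted p = 0.00014). The part of these lists in the S100 results was not tested. Erythroid genes summed to at most 4.85 CPM per library, and of the 4 tested 0 were called in either comparison with NT, although 3 rose in DOT1L High over DOT1L Low (0 without K3117 DOT1L Low, and 1 without K3174 DOT1L Low or K3174 DOT1L High). Against NT, 1 erythroid gene was higher in DOT1L High without K3117 NT or K3117 DOT1L High, and 1 was lower in DOT1L Low without K3117 DOT1L High or K3174 NT. Without K3117 NT 1 stromal or endothelial gene, Pecam1, was lower in DOT1L High over NT (-0.44, adjusted p = 0.0075).

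The genes whose pattern was most like that of the pair were ranked by Pearson's r of log2 CPM over the 6 libraries, which share labels and leukemias. S100a8 and S100a9 had r = 0.999 with each other. The 5 genes nearest to S100a9 were Camp (0.999), the SUMO protease gene Senp2 (0.999), Tinagl1 (0.998), the growth arrest gene Gadd45a (0.998) and 4930438A08Rik (0.997). Those nearest to S100a8 were Camp, Gadd45a and Senp2 (0.998 each), Pgd, an enzyme of the pentose phosphate pathway (0.997), and Tinagl1 (0.997). A like pattern did not mean a like size: in DOT1L High over NT, Gadd45a rose 1.62 ± 0.17 (adjusted p = 5.6e-05) and Pgd 1.05 ± 0.14 (adjusted p = 0.00025), and Senp2 had 0.40 ± 0.12 (adjusted p = 0.035), a call that was lost with 2 of the scalings and without any of the 4 DOT1L libraries (adjusted p of 0.060 to 0.34). Within the family r with S100a9 was 0.92 for S100a1, 0.89 for S100a11, 0.76 for S100a13, 0.67 for S100a6 and -0.63 for S100a10.

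**Figure D5:**
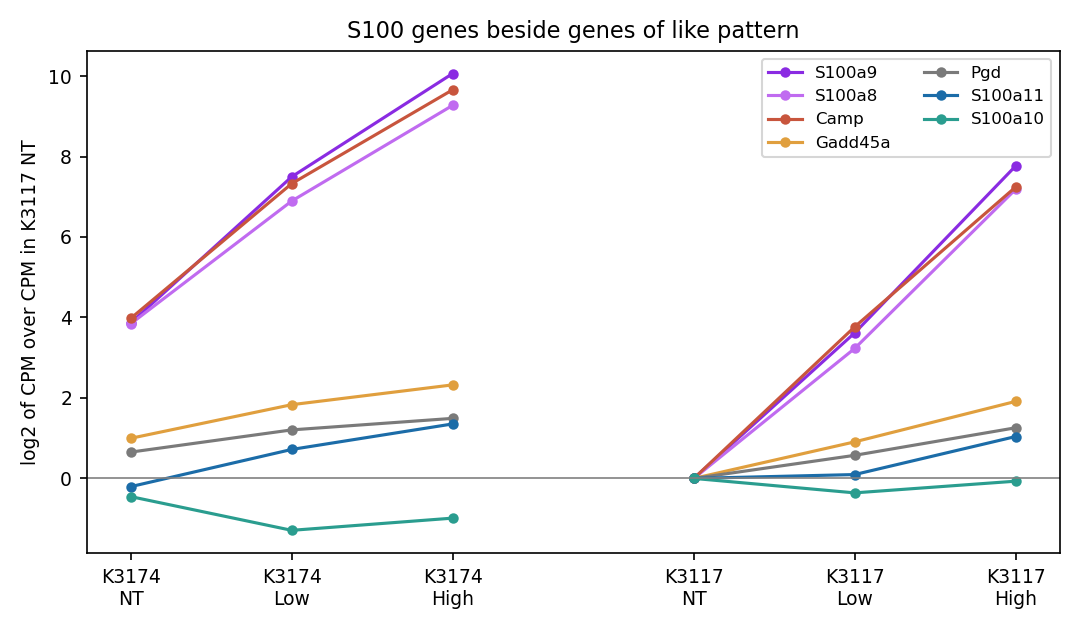
log2 of CPM over the CPM of the K3117 NT library for S100 genes and for genes of like pattern, by library; lines join the libraries of 1 leukemia. S100a9, S100a8 and Camp move together over the widest range, Gadd45a and Pgd follow the same order of libraries over a narrow range, and S100a10 runs at or below 0.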

How the data were processed

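The authors deposited raw counts per gene for 6 libraries, read as whole-number counts. The submitters' processing notes list STAR, STAR-Fusion, kallisto and DESeq2, and the build mm10; which tool made the counts and whether strand was used is not given in the sources used here. Of 49585 identifiers, 259 had no symbol, and 0 sample columns were left unused. Counts were tested with edgeR 4.0.16 (R 4.3.3; filterByExpr, TMM factors of 0.973 to 1.04, quasi-likelihood test, prior count 2) with the leukemia as a block, and p-values were adjusted by Benjamini and Hochberg. Libraries of 1 leukemia share the K number in their titles, which was taken as a shared source. Their deviations from the label means correlated at 0.57 (DOT1L Low and NT), 0.44 (DOT1L High and NT) and 0.64 (DOT1L High and DOT1L Low). DESeq2 1.42.0, other scalings, filters and fits without the block or without each library were alternatives. No 2 libraries agreed within sampling noise (the chi-square divided by its degrees of freedom was at least 25.2). The test was run on simulated data with 1 spread for all genes and no difference between leukemias. That setting is unlike S100a8 and S100a9, so the run does not bear on their calls. Positions and lengths are from GENCODE release M21. The members and lists were chosen with earlier results of these data known. Named were all members, other S100 genes, the 4 genes with the smallest p per list, and 5 genes most like S100a8 and S100a9.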

Additional observations from a re-analysis of the deposited data

Results flagged for a closer look

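S100a6 and S100a13 had log2 CPM differences in opposite directions in the 2 leukemias in DOT1L Low over NT. S100a6 differed by -0.652 in K3174 and 0.0718 in K3117, and S100a13 by 0.0164 in K3174 and -0.229 in K3117. The differences between the leukemias were not tested, with 1 library per label and leukemia, and neither gene was called in that comparison.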

How the results depend on the processing

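S100a8 and S100a9 kept their direction in the 3 DOT1L comparisons under every scaling, filter and left-out library and with DESeq2. Their calls held under every scaling and filter and with DESeq2. A fit without 1 library leaves 1 library under that label, so the calls and counts it gives are no measure of stability. Without the replicate block for the leukemia, DOT1L High over NT gave 493 genes and 1 S100 member (S100a11, adjusted p = 0.044), and DOT1L Low over NT and DOT1L High over DOT1L Low gave 0 genes and 0 members each by edgeR. Other named genes that lost their call in DOT1L High over NT in that fit included Camp (adjusted p = 0.13), Fcnb (0.31), Anxa1 (0.13), Cebpe (0.058) and Mpo (0.34). Leaving out 1 library at a time gave 1927 to 4394 genes and 3 to 6 members in DOT1L High over NT, 144 to 1483 and 2 to 4 in DOT1L Low over NT, 335 to 1982 and 3 to 5 in DOT1L High over DOT1L Low, and 829 to 2642 and 3 to 5 in K3174 over K3117. Without an expression filter DOT1L Low over NT gave 1071 genes and 4 members, and DOT1L High over DOT1L Low 1425 genes. A filter of 5 CPM gave 568 genes in DOT1L High over DOT1L Low and 932 in K3174 over K3117. Some values changed sign when a library was left out: in DOT1L Low over NT, S100a6 ranged between -0.69 and 0.12 (positive without K3174 DOT1L Low) and S100a13 between -0.24 and 0.04 (positive without K3117 DOT1L Low), and in DOT1L High over NT, Col1a1 between -0.26 (without K3174 DOT1L High) and 2.80. The causes were not tested. Upper quartile factors moved the median of all genes to -0.11 in DOT1L High over NT, where 43.9% of calls were higher, against 57.8% with TMM and 49.1% with library sizes alone. With the longest transcript as length, S100a6 and S100a10 had 21.1 and 27.5 CPM per kilobase in DOT1L High. With 2 libraries a label the spread is poorly known, and 98 and 76 counts of S100a8 and S100a9 in K3117 NT limit their folds.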
